A study of Populus deltoides x Populus x canadensis with 6 samples.

Results

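GT43A and GT43B are a duplicate pair of IRX9-type glycosyltransferase genes of the GT43 family, and their transcripts were followed in stems of wild type poplar and of a brassinosteroid receptor mutant. The pair was chosen by identifier, as Potri.006G131000.v4.1 (GT43A) and Potri.016G086400.v4.1 (GT43B), which are 2 of the 35792 genes in the deposited table. Each identifier matched 1 row, and both genes passed the filter on low counts. Which identifier is GT43A and which GT43B was taken from the order in which the pair was listed, and the names could not be checked in the files, since the symbol column of the deposited table holds only identifiers and its description column is blank. The identifiers place GT43A on chromosome 6 and GT43B on chromosome 16, and the lengths implied by the authors' FPKM are 1352 and 1389 bp.

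Xylan is the main hemicellulose of wood in broadleaved trees, a chain of xylose units that binds to cellulose in the secondary walls of xylem vessels and fibres. Its backbone is lengthened in the Golgi by a set of glycosyltransferases of which IRX9 is a part, and in Arabidopsis loss of IRX9 gives short xylan chains and collapsed vessels. Brassinosteroids are plant steroid hormones perceived at the cell surface by the receptor kinase BRI1, and are known to promote vascular differentiation.

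All plants were hybrid poplar of the strain Nanlin 895, sampled at 45 days after greenhouse growth under days of 16 h light and 8 h dark. One group was wild type, and the other carried the genotype pdbri1-1;2;3;6, labelled as mutant in 4 genes of the BRI1 family. Each genotype had 3 libraries, and for each of them the leafless basal stem (2 cm) of 30 plants was pooled. P-values therefore refer to pools of plants, not to single plants. In the test of all genes (edgeR), the spread between pools is estimated partly across genes. How many independent lines the mutant stands for is not stated in the labels. Tissue identity and the state of the BRI1 genes were not checked here, because the table names no marker or receptor gene.

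Library totals ran from 17752822 to 21096052 counts. Of 27382 genes tested, 17558 (64.1%) differed between genotypes at an adjusted p under 0.05 (edgeR's quasi-likelihood test), which is the background for a call on either gene of the pair. Among the calls, 51.6% were rises in the mutant with TMM scaling and 66.8% were rises when only library totals were used, and the median log2 fold change over the tested genes was 0.01 and 0.13 under these scalings. FPKM values are scaled by library totals, so folds read from FPKM carry this shift.

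Both genes of the pair fell in the mutant stem, GT43A to 28.3% and GT43B to 24.2% of the wild type level. GT43A, the less abundant copy, averaged 4.55 ± 0.51 FPKM over the wild type libraries and 1.40 ± 0.10 FPKM over those of the mutant (SD, n = 3 each). GT43B, the more abundant copy, averaged 8.92 ± 0.68 FPKM and 2.35 ± 0.24 FPKM (SD, n = 3 each). Together the copies went from 19.4 ± 1.5 to 4.94 ± 0.37 CPM, a count scaled by the library total and the TMM factor (SD, n = 3 each). In bulk stem tissue, fewer cells expressing the pair and less RNA per cell cannot be told apart.

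GT43A had 118, 133 and 113 counts in wild type libraries 1, 2 and 3, or 4.86, 4.81 and 3.96 FPKM. In mutant libraries 1, 2 and 3 it had 36, 35 and 36 counts, or 1.28, 1.46 and 1.45 FPKM. The lowest wild type library, replicate 3, lay well above the highest mutant library, and the groups did not overlap. Levels in FPKM that lay entirely below the wild type were found for 22.6% of the genes tested. The log2 fold change of GT43A, mutant over wild type, was -1.82 with a standard error of 0.18, a fall of 3.54-fold (adjusted p = 8.57e-13, edgeR's quasi-likelihood test). The 95% exact interval of the fold was 2.85 to 4.44 and covers counting error only. It came from summed counts, 364 for the wild type against 107 for the mutant, scaled by library totals and TMM factors.

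GT43B had 242, 242 and 250 counts in wild type libraries 1, 2 and 3, or 9.70, 8.52 and 8.53 FPKM. In mutant libraries 1, 2 and 3 it had 67, 64 and 54 counts, or 2.32, 2.60 and 2.12 FPKM. In FPKM, wild type replicate 1 was the highest library for both genes. Again no mutant library reached the lowest wild type value, as was so for 22.6% of the genes tested. The log2 fold change of GT43B was -2.05 with a standard error of 0.13, a fall of 4.13-fold (adjusted p = 2.54e-19, edgeR's quasi-likelihood test). The 95% exact interval of the fold from 734 and 185 summed counts, scaled in the same way, was 3.51 to 4.88, again for counting error only.

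**Figure D1:**
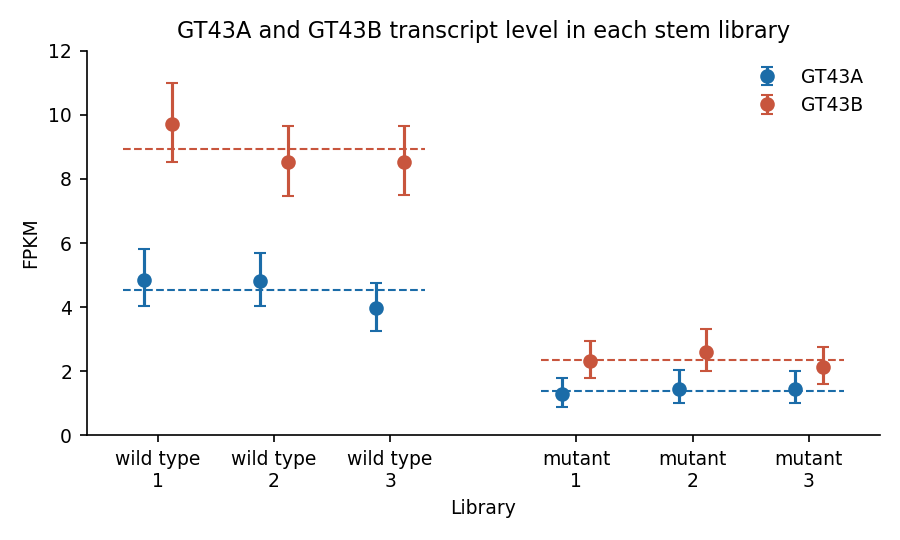
FPKM (vertical axis) of GT43A and GT43B in each of the 3 wild type and 3 mutant libraries; bars are 95% exact Poisson intervals of the count, and dashed lines are group means. GT43A sits at 3.96 to 4.86 FPKM in wild type and 1.28 to 1.46 in mutant libraries, and GT43B at 8.52 to 9.70 and 2.12 to 2.60.

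Replicate pools differed little from one another for this pair. The coefficient of variation of the CPM for GT43A was 11.1% among wild type pools and 7.39% among mutant pools, where counting alone at these depths gives 9.08% and 16.7%. For GT43B it was 7.73% and 10.3%, against 6.39% and 12.7% from counting. The variance of the counts over that expected from sampling alone was 1.55 for GT43A and 1.36 for GT43B among wild type pools, and 0.19 and 0.61 among mutant pools. The mutant values rest on 35 to 67 counts per library. From the libraries alone, the CPM of each copy gave p = 0.1 (two-sided exact permutation test). That is the smallest possible with 3 libraries per genotype.

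A fall of this size was uncommon in the comparison as a whole. Lower levels in the mutant were called for 31.0% of the genes tested, and called falls of at least 2-fold for 5.19%. A log2 fold change as low as that of GT43A or lower was found for 475 genes (1.73%), and one as low as that of GT43B or lower for 369 genes (1.35%), and all of these genes were called. Among the 5774 tested genes within 1 log2 unit of the mean CPM of GT43A, 7.41% were called at least 2-fold lower and 148 (2.56%) fell as far as GT43A. Among the 7599 genes within 1 unit of GT43B, the called 2-fold falls were 5.07%, and 100 genes (1.32%) fell as far as GT43B. Their adjusted p-values were not among the smallest of the table, since 3879 genes had one as small as that of GT43A and 1857 one as small as that of GT43B (edgeR).

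**Figure D2:**
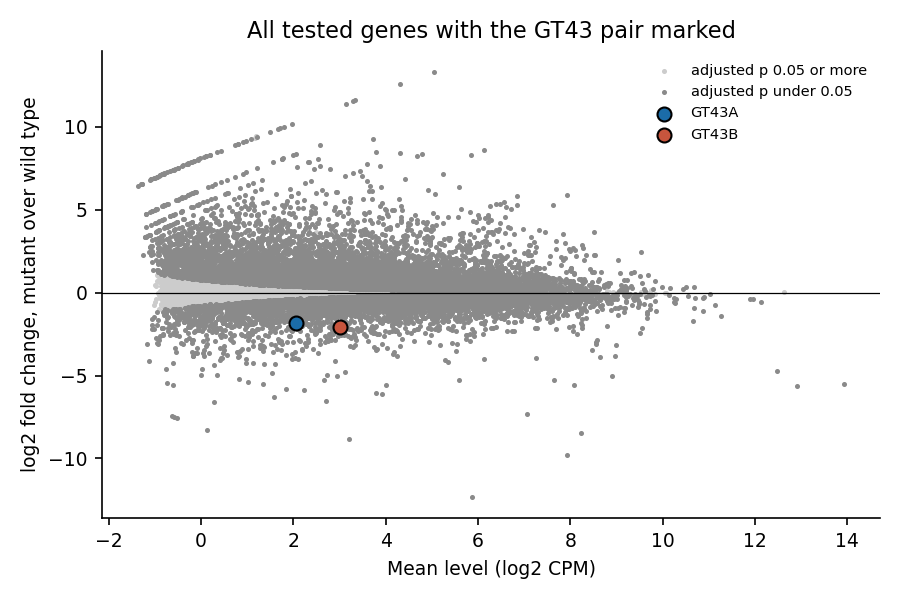
Log2 fold change, mutant over wild type (vertical axis), against mean level in log2 CPM (horizontal axis) for the 27382 tested genes, with dark grey for an adjusted p under 0.05. GT43A at -1.82 and GT43B at -2.05 lie below most genes of their level, while some genes fell much further.

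Rank among genes by FPKM fell as well, and it depends also on the levels of the other genes. In the wild type libraries 34.5% to 38.8% of the tested genes had a lower FPKM than GT43A, and in the mutant libraries 12.5% to 14.2% did. For GT43B the share of genes below it was 52.7% to 56.6% in wild type libraries and 19.3% to 22.7% in mutant libraries. GT43B was therefore a gene of middle rank in the wild type stem, whose median tested gene had 7.68 to 7.72 FPKM, and GT43A stood below the middle. The median tested gene of the mutant libraries had 8.87 to 8.97 FPKM. The share of tested genes above 1 FPKM was 85.5% in each wild type library and 90.2% to 90.3% in the mutant libraries. The fall in rank therefore includes this shift of the other genes.

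GT43B was the more abundant copy in 6 of 6 libraries. Its FPKM was 2.00, 1.77 and 2.15 times that of GT43A in wild type libraries 1, 2 and 3, and 1.81, 1.78 and 1.46 times in the mutant libraries. The mean ratio was 1.97 ± 0.19 for wild type and 1.68 ± 0.19 for mutant libraries (SD, n = 3 each), and the ranges of the genotypes overlapped. From high to low, the order of FPKM was GT43B in the wild type, GT43A in the wild type, GT43B in the mutant and GT43A in the mutant, with no overlap of library values between neighbours in this order. The 95% counting intervals did overlap between the lowest wild type library of GT43A (3.27 to 4.76 FPKM) and the highest mutant library of GT43B (2.00 to 3.31 FPKM). They also overlapped between GT43A and GT43B within mutant library 2, at 1.02 to 2.03 and 2.00 to 3.31 FPKM, and within mutant library 3, at 1.02 to 2.01 and 1.59 to 2.76 FPKM.

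Whether the copies fell by different amounts was asked from their ratio within each library, which does not depend on library size or scaling. GT43A made up 32.8%, 35.5% and 31.1% of the pair's counts in wild type libraries 1, 2 and 3, and 35.0%, 35.4% and 40.0% in the mutant libraries. The wild type and mutant shares overlapped, with mutant replicate 3 the highest of all. The log2 ratio of GT43A to GT43B counts was -1.02 ± 0.14 for wild type and -0.78 ± 0.17 for mutant libraries (SD, n = 3 each), a difference of 0.23 that was not separable from the spread between libraries (two-sided exact permutation p = 0.3, where 0.1 is the smallest this design allows). From summed counts the ratio in the mutant was 1.17 times that in the wild type, with a 95% exact interval of 0.88 to 1.54 for counting error only. That interval includes equal falls of the copies, and the result does not show that they fell equally.

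**Figure D3:**
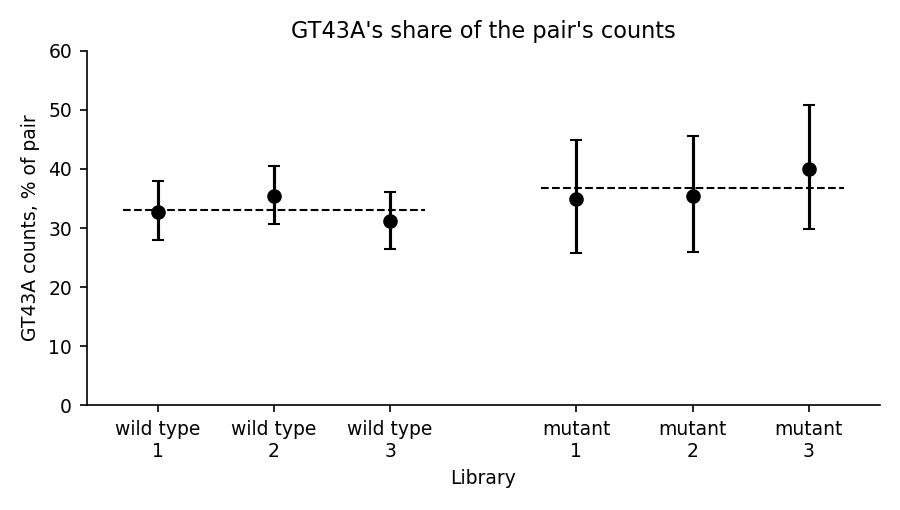
Share of the pair's counts that came from GT43A, in percent (vertical axis), in each library; bars are 95% exact binomial intervals and dashed lines are group means. Wild type values of 31.1% to 35.5% and mutant values of 35.0% to 40.0% overlap in their ranges and intervals.

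The sum of the copies does not depend on how the counted reads are divided between them. The labels do not state the rule for reads that match both copies, and the sum would lack such reads if they were left uncounted. The pair had 360, 375 and 363 counts in wild type libraries 1, 2 and 3 and 103, 99 and 90 counts in the mutant libraries. In CPM the sum was 21.0, 19.1 and 18.0 for wild type and 4.74, 5.36 and 4.71 for mutant libraries, with no overlap between genotypes, as 32.6% of the genes tested showed in CPM in this direction. Mutant libraries averaged 3.92-fold less than wild type libraries (exact permutation test, two-sided, p = 0.1, the smallest possible with 3 libraries per genotype). The separate level of either copy remains uncertain to the extent that reads were shared, and the sum to the extent that shared reads went uncounted.

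The tested genes next to each copy in identifier order were read, to set the change of the copy beside theirs. Chromosome positions were not used, so neighbours here are neighbours in identifier order, which may differ from position. In this order, the tested genes nearest to GT43A were Potri.006G130700.v4.1 and Potri.006G130900.v4.1 before it and Potri.006G131100.v4.1 and Potri.006G131200.v4.1 after it. Their log2 fold changes were -0.12 (adjusted p = 0.121), -0.39 (adjusted p = 3.31e-17), 0.36 (adjusted p = 0.00123) and -0.33 (adjusted p = 0.00216, edgeR for all). The gene directly before GT43A, Potri.006G130900.v4.1, had a level far above that of GT43A in both genotypes, at 1396 ± 19 FPKM for wild type and 1159 ± 32 FPKM for mutant libraries (SD, n = 3 each). Whether these neighbours overlap or share reads was not analysed here.

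The nearest genes after GT43B were not called, and those before it fell slightly. Potri.016G086200.v4.1 and Potri.016G086300.v4.1, before it, had log2 fold changes of -0.40 (adjusted p = 3.52e-06) and -0.17 (adjusted p = 0.00272, edgeR for both). Potri.016G086500.v4.1 and Potri.016G086600.v4.1, after it, had values of 0.04 (adjusted p = 0.614) and -0.07 (adjusted p = 0.297, edgeR for both). Over all tested genes, 31.0% were called lower and 33.1% higher. Among the 20 tested genes closest to GT43A in identifier order, 10 on each side, 10 were called lower, 7 higher and 3 neither. Their median log2 fold change was -0.12. Among the 20 closest to GT43B, 8 were called lower, 4 higher and 8 neither, with a median of -0.09. These counts were not tested against the shares over all genes. The lowest neighbour of GT43A stood at -1.25 and the lowest neighbour of GT43B at -0.87. Falls as large as those of GT43A and GT43B were found for 1.73% and 1.35% of all tested genes, so their absence among 20 neighbours is no result about the neighbourhood.

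**Figure D4:**
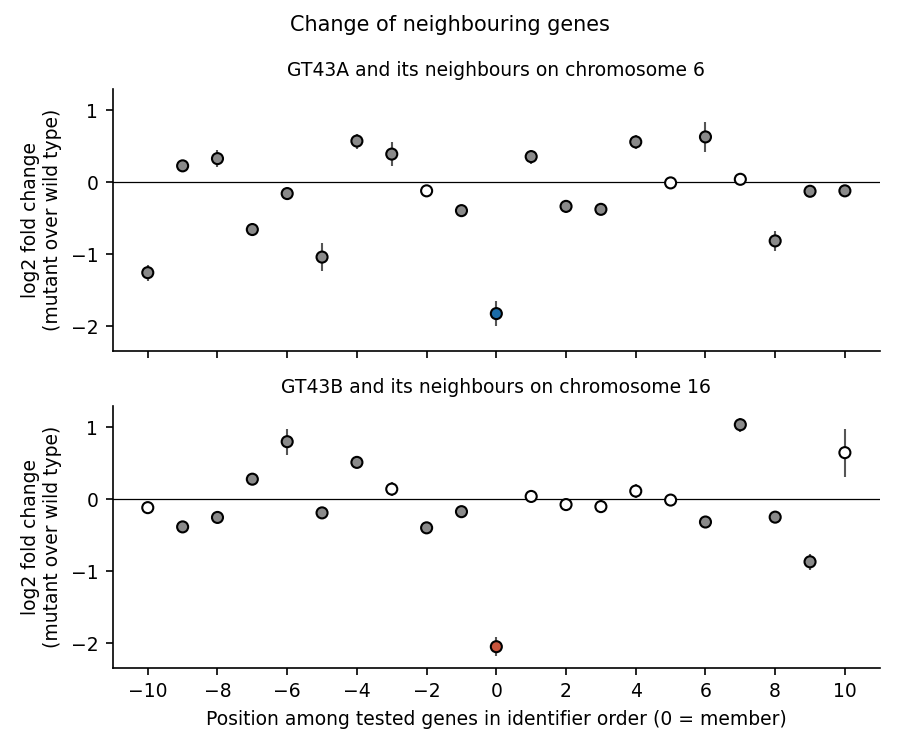
Log2 fold change, mutant over wild type, with its standard error, for GT43A (above) and GT43B (below) and the 10 tested genes on each side in identifier order; grey points have an adjusted p under 0.05 and white points do not. Both copies lie below every neighbour shown, the lowest of which are at -1.25 and -0.87.

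The genes whose profile was most like that of each copy were taken as those with the smallest distance over the 6 libraries in log2 CPM, each gene centred on its own wild type mean, among genes within 1 log2 unit of the same mean level. With 6 libraries of 2 genotypes, this distance mostly reflects the size of the genotype difference. For GT43A, 5773 candidates gave a transcript of 275 bp outside the Potri numbering (log2 fold change -1.83), Potri.008G094700.v4.1 (-1.78) and Potri.008G024900.v4.1 (-1.77), at distances of 0.22, 0.23 and 0.30. In FPKM these went from 25.3 ± 1.9 to 7.73 ± 0.15, from 3.93 ± 0.32 to 1.25 ± 0.17 and from 3.62 ± 0.25 to 1.16 ± 0.22 (SD, n = 3 per genotype).

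For GT43B, 7598 candidates gave Potri.011G146300.v4.1 (log2 fold change -2.13), Potri.006G181900.v4.1 (-2.08) and Potri.001G119300.v4.1 (-2.03), at distances of 0.20, 0.21 and 0.21. Their levels went from 6.90 ± 0.46 to 1.72 ± 0.19, from 6.00 ± 0.57 to 1.54 ± 0.02 and from 5.76 ± 0.20 to 1.54 ± 0.10 FPKM (SD, n = 3 per genotype). The distance between GT43A and GT43B was 0.53, where the median distance of candidates was 3.36 for GT43A and 3.64 for GT43B. Each copy was the 40th nearest gene to the other.

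**Figure D5:**
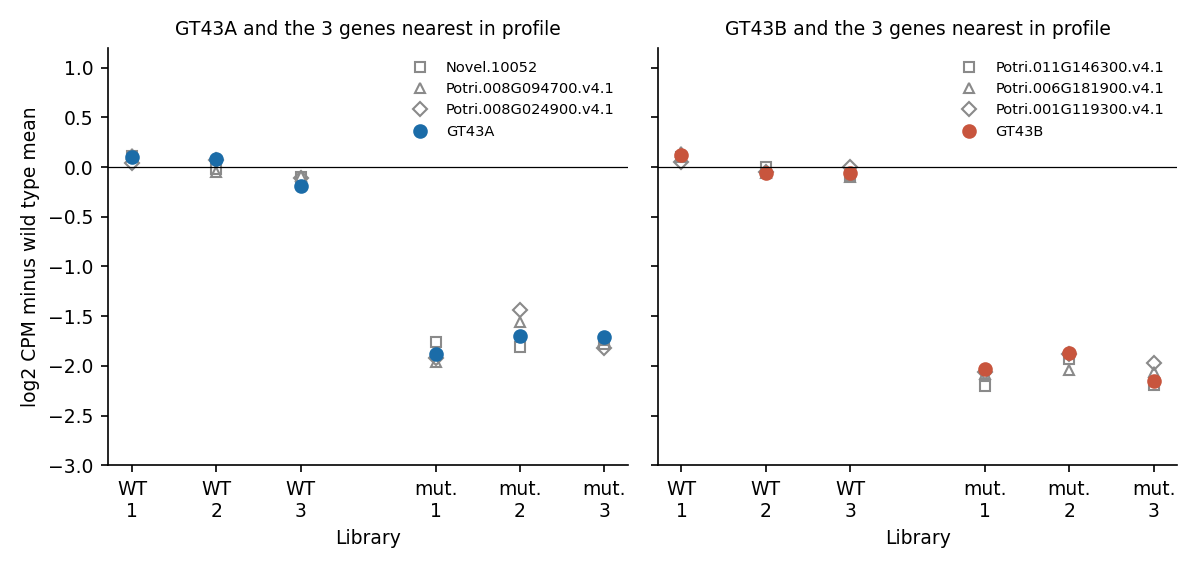
Log2 CPM minus the gene's own wild type mean (vertical axis) in each library for GT43A (left), GT43B (right) and, as open grey symbols, the 3 genes nearest to each in profile. GT43A lies between -1.88 and -1.70 in the mutant libraries and GT43B between -2.15 and -1.87, with the grey symbols close to them.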

How the data were processed

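RNA sequencing of 6 stem pools gave 1 deposited table. Its count columns are named as counts by their headers, which say no more on scaling, and were used as deposited. Its deposited FPKM columns, per the file headers, hold counts scaled by gene length and library total: 100% of the 185484 values above 0 gave a whole length in bp (within 0.01). The sources used here name no aligner, counting tool, strand setting or genome build. All value columns matched a sample by title.

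The count test was that of edgeR 4.0.16 (R 4.3.3): filterByExpr (minimum count 10, total 15), TMM, glmQLFit with robust=TRUE, glmQLFTest on genotype, and Benjamini-Hochberg adjustment over all 27382 genes. Standard errors are the log2 fold change over the square root of F. The test was also run on simulated counts in which few genes were changed. That run cannot show how the test and its scaling behave where 64.1% of genes are called, as here. DESeq2 1.42.0 and limma 3.58.1 gave alternatives. Single values were compared by exact permutation over libraries. Intervals are exact at 95% and cover counting error.

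The members and lists were chosen with earlier results of these data known. Named are the pair, the 2 nearest tested genes on each side, and the 3 nearest in profile. Lists of xylan genes, tissue markers and promoter motifs needed an annotation and were not used here.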

Additional observations from a re-analysis of the deposited data

How the results depend on the processing

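GT43A and GT43B kept their direction and an adjusted p under 0.05 in all 15 alternatives tried for each (other scalings, filters and tools, the replicate block, and each library left out). The log2 fold change ranged from -1.92 to -1.21 for GT43A and from -2.13 to -1.57 for GT43B, with adjusted p of at most 4.59e-06 and 3.9e-07. The values nearest to 0 came from limma on log2(FPKM + 1), a scale that understates the change of low genes by construction. Leaving out 1 library gave -1.92 to -1.76 for GT43A, -2.13 to -1.99 for GT43B, and 16605 to 17115 called genes. With library totals only, the pair stood at -1.70 and -1.92, or -1.83 and -2.05 relative to the median of all genes. The difference in the log2 ratio of the copies ran from 0.13 to 0.31 when 1 library was left out, with exact permutation p of 0.2 to 0.6. It was 0.13 without mutant replicate 3 and 0.31 without wild type replicate 2. In the latter case the genotypes did not overlap, and the exact permutation p of 0.2 is the smallest possible with 1 library left out. The sum of the pair, at -1.97 on the log2 scale, ran from -2.03 to -1.91 with 1 library left out, and was -1.85 with library totals and -1.85 as a sum of FPKM, both of which leave out the TMM factors. With the replicate number as a block, GT43A stood at -1.82, GT43B at -2.05, the ratio difference at 0.23 and the sum at -1.97, and 17334 genes were called, so the block changed no call on the pair. Libraries of the 2 genotypes share only a number: deviations of same-numbered libraries correlated at -0.02 to -0.005, and no library's deviations correlated best with those of its own number (0 of 6). Counts of called genes over all alternatives ran from 15289 to 18564. The list of xylan genes was not run, since no annotation was used. Mutant libraries held 35 to 67 counts per copy, which limits the precision of the ratio between the copies.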
